A study of Mus musculus with 12 samples.

Results

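The collagen genes of the mouse tongue were taken as every row of the expression tables whose symbol is Col, a number, a and a number, which gave 44 of 32498 named rows. The symbol alone chose them. Of these 44 genes, 33 had a mean of at least 0.1 FPKM over all libraries and were compared between groups, as part of a test over 16849 genes. FPKM divides the reads of a gene by its exon length and by the size of the library. The length here is that of all annotated exons, used or not, such as 12426 bases for Col1a2 and 6563 for Col1a1. Levels can thus be set side by side between genes only roughly, and the size of a ratio between genes depends on these lengths.

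Collagens are the triple-helical proteins of the extracellular matrix. The fibrillar types I, III and V form the fibrils of connective tissue made by fibroblasts, type IV forms the sheet of basement membranes, type VI forms beaded microfibrils, and the FACIT collagens (fibril-associated collagens with interrupted triple helices, such as types XII and XIV) sit on fibril surfaces. Collagen XVII, a transmembrane protein of the hemidesmosome, and collagen VII, the anchoring fibril, fasten stratified epithelium to the tissue under it and are made largely by basal keratinocytes.

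Tongue tissue, labelled as tumor and tumor-associated, came from C57BL/6 mice that were 5 weeks old at purchase. All mice of both groups drank water with 100 µg/mL of the carcinogen 4-nitroquinoline 1-oxide (4NQO) for 16 weeks and plain water afterwards. From week 4 until sacrifice, the 6 GA mice were gavaged with gallic acid, a plant polyphenol, at 100 mg/kg 5 times per week, and the 6 vehicle mice received the carrier alone on the same schedule. A library was treated as 1 mouse, as replicates are numbered but animals are not named in the labels, and p-values measure the spread between these libraries. Whether any library held tumor, and how much, was not known, and no group without 4NQO was analysed here.

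Library totals recovered from the values lay between 18041656 and 25194394 reads. The basal keratinocyte markers (7 genes, among them Krt5 and Krt14) summed to 2918 to 11614 FPKM and the skeletal muscle markers to 1382 to 11579 FPKM per library, so every library held epithelium and muscle. Vehicle libraries 3 and 5 and GA library 2 had at least 8228 FPKM of Lipf, a lipase of tongue glands. Vehicle libraries 1 to 4 and GA library 1 carried Y-linked reads (3345 to 4535), and all other libraries had 0. Such reads mark male mice, and sex is not given in the labels. The groups were unbalanced in these reads, so sex and GA cannot be fully told apart in the comparison of the groups. A term for these reads was among the alternative settings below. Neutrophil markers (8 genes) summed to 73.9 FPKM in vehicle library 5, 29.8 in vehicle library 4 and 18.1 in GA library 2, and to 0.957 to 3.55 in the other 9.

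The stretches before the transcription starts of 4 collagen genes are shown because these genes stand for the groups that varied together below, the fibrillar pair Col1a2 and Col3a1 and the epithelial pair Col7a1 and Col17a1. RefSeq windows on GRCm38.p6 were found for 35 of the 44 genes, in 38 windows. Col1a1, the fibrillar gene used in most comparisons below, was among the 9 genes without a window, as were Col5a2, Col12a1 and Col14a1. Each line gives the 250 bases before the start, 5′ to 3′ on the gene's strand, with capitals marking the CCAAT box (CCAAT), the TATA box (TATAAA), the GC box (GGGCGG) or the AP-1 motif (TGANTCA) on either strand. No marked motif overlaps another in these windows.
Col1a2, chr6:4505368-4505617, plus strand: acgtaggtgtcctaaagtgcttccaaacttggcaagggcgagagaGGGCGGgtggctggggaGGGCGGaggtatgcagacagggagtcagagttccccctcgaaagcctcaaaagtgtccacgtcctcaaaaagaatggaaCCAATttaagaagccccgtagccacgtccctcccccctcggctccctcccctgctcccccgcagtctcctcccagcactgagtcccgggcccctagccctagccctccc
Col3a1, chr1:45311288-45311537, plus strand: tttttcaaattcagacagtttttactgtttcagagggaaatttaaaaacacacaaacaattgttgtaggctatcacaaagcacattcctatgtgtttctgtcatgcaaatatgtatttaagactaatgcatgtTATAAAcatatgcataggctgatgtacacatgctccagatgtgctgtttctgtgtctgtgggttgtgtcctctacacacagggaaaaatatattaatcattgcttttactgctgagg
Col7a1, chr9:108953336-108953585, plus strand: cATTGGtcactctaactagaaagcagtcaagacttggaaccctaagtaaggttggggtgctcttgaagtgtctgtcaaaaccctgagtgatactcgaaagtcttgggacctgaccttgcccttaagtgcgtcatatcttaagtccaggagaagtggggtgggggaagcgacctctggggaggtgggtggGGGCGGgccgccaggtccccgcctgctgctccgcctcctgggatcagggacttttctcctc
Col17a1, chr19:47692043-47692292, minus strand: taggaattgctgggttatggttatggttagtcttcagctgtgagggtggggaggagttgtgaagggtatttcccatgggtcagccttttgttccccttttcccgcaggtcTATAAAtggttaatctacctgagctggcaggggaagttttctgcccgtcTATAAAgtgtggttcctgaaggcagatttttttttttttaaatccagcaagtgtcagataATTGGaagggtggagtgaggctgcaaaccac

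Col1a2 held a GC box at 205 and 188 bases before its start and a CCAAT box at 109 bases. Col3a1 held neither, and a TATA box lay 117 bases before its start. Col7a1 and Col17a1 both held a CCAAT box on the other strand, at 249 and 31 bases. Col7a1 also held a GC box at 61 bases, and Col17a1 held a TATA box at 140 and 91 bases. The GC box was in 22 of the 38 collagen windows (57.9%), against 32.7% of all 32851 windows of the same length. The CCAAT box was in 34.2% against 33.8%, the TATA box in 13.2% against 12.4%, and the AP-1 motif in 2.63% against 6.75%. These are counts of letters, and the motifs were not tested as sites.

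Col17a1 was the most abundant collagen transcript in each of the 12 libraries, with a mean of 141 FPKM. It made up 24.0% to 62.7% of the summed FPKM of all 44 collagen genes, a sum that ranged from 149 FPKM in GA library 4 to 583 FPKM in vehicle library 4. Next in mean level came Col3a1 (20.4 FPKM), Col18a1 (19.97), Col1a1 (18.4), Col4a1 (15.6), Col4a2 (12.1), Col7a1 (11.2) and Col1a2 (8.59). Thus 7 genes had a mean of at least 10 FPKM and 21 a mean of at least 1 FPKM. The levels after Col17a1 lay close to each other against their spread, with a coefficient of variation over libraries of 98.0% for Col3a1, 86.2% for Col18a1 and 117% for Col1a1.

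**Figure D1:**
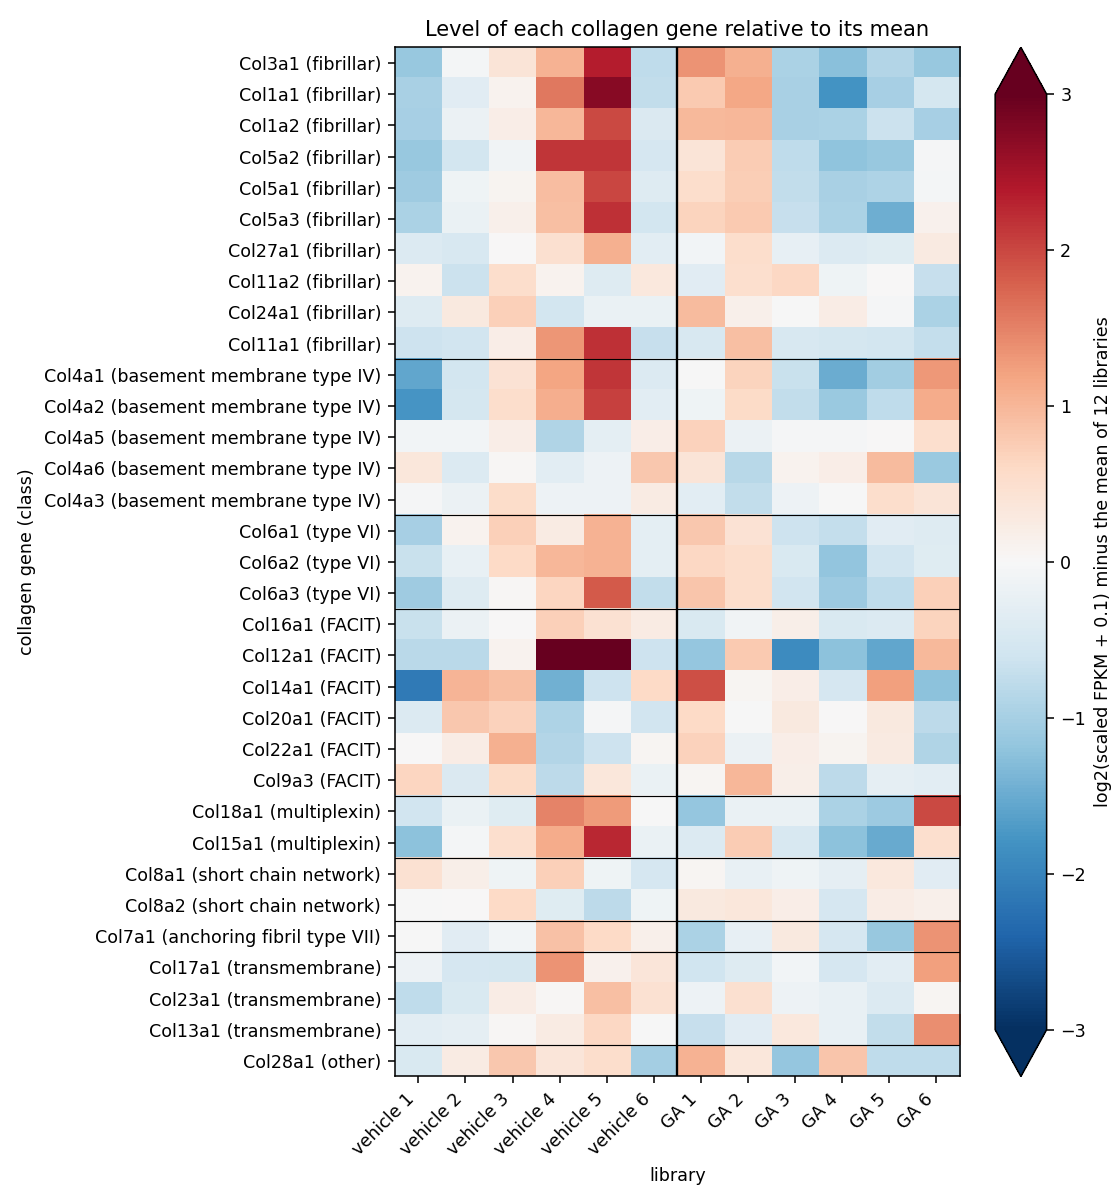
Heat map of the 33 collagen genes that passed the filter (rows, ordered by class and mean level) in the 12 libraries (columns), colored by log2(scaled FPKM + 0.1) minus the gene's mean over libraries, with the color scale ending at -3 and 3. The genes of types I, III, V and VI are red in vehicle libraries 4 and 5 and in GA libraries 1 and 2, Col4a1 and Col4a2 in vehicle libraries 4 and 5 and GA libraries 2 and 6, and Col7a1, Col17a1 and Col18a1 are red in vehicle library 4 and GA library 6.

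The fibrillar collagens varied widely between libraries within both groups. Col1a1 encodes the main chain of type I collagen (chromosome 11, 94936224 to 94953042, GRCm38). Its level was 5.99, 11.1 and 79.3 FPKM (lowest, median and highest) in the vehicle group and 3.39, 7.12 and 26.6 FPKM in the GA group. The highest values were in vehicle libraries 5 and 4, followed by GA libraries 2 and 1, and the groups overlapped. The log2 fold change of Col1a1 (GA minus vehicle) was -0.78 (SE 0.67, 95% interval -2.24 to 0.68, unadjusted p = 0.269 in limma). Without vehicle library 5 it was -0.31, and it ran from -1.615 to -0.27 over the 27 alternative settings described below.

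Col3a1, the type III chain of pliable connective tissue, measured 6.50, 16.3 and 73.8 FPKM with vehicle and 5.92, 7.55 and 36.5 FPKM with GA. Its log2 fold change was -0.61 (SE 0.63), and -0.20 without vehicle library 5. Col1a2, the second chain of type I, measured 3.33, 6.85 and 26.8 FPKM with vehicle and 3.28, 3.83 and 13.4 FPKM with GA, with a log2 fold change of -0.53 (SE 0.53), and -0.19 without that library. In both genes 4 of 6 GA libraries lay below the vehicle median, and GA libraries 1 and 2 lay above it. Type V collagen, which is built into type I fibrils, had the same high libraries: Col5a2 was at 16.4 FPKM in vehicle library 5, 16.2 in vehicle library 4 and no more than 6.18 with GA. Col5a1 was at 11.8 FPKM in vehicle library 5 and no more than 4.84 with GA. Their log2 fold changes were -0.66 (SE 0.61) and -0.48 (SE 0.49), and they were -0.30 and -0.12 without vehicle library 5. For Col5a2 the value without vehicle library 4 was also -0.30. Reads on 2.50% of the exon bases of Col5a1 could also belong to overlapping genes, because strandedness of the read counting is not given in the sources used here.

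Col11a1, a minor fibrillar chain known from cartilage and from activated fibroblasts, was near the detection limit in most libraries. It had 0.701 FPKM in vehicle library 5, 0.336 in vehicle library 4 and 0.225 in GA library 2. None of the remaining 9 exceeded 0.1002 FPKM, and the range in reads was 2 to 196. Of the 9 cartilage and bone markers, 7 did not exceed 0.215 FPKM in any library, among them Acan with 0.0366 FPKM at most and Matn1 at 0 throughout. Chad, a cartilage matrix protein, had 3.41 FPKM in vehicle library 3, 2.47 in GA library 2 and 1.97 in vehicle library 5, and Sox9, a transcription factor of cartilage that epithelia also express, had 0.318 to 10.5 FPKM and was highest in GA library 6. Their part in the levels of Col11a1 was not tested. The log2 fold change of Col11a1 was -0.61 (SE 0.53), and -0.23 without vehicle library 5, on the log2(FPKM + 0.1) scale, which understates differences of such low genes. As a class, the 10 fibrillar genes that passed the filter had a median log2 fold change of -0.52, with 9 lower and 1 higher (Col24a1, 0.11), and in bulk tissue fewer cells of a type cannot be told apart from less RNA per cell.

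**Figure D2:**
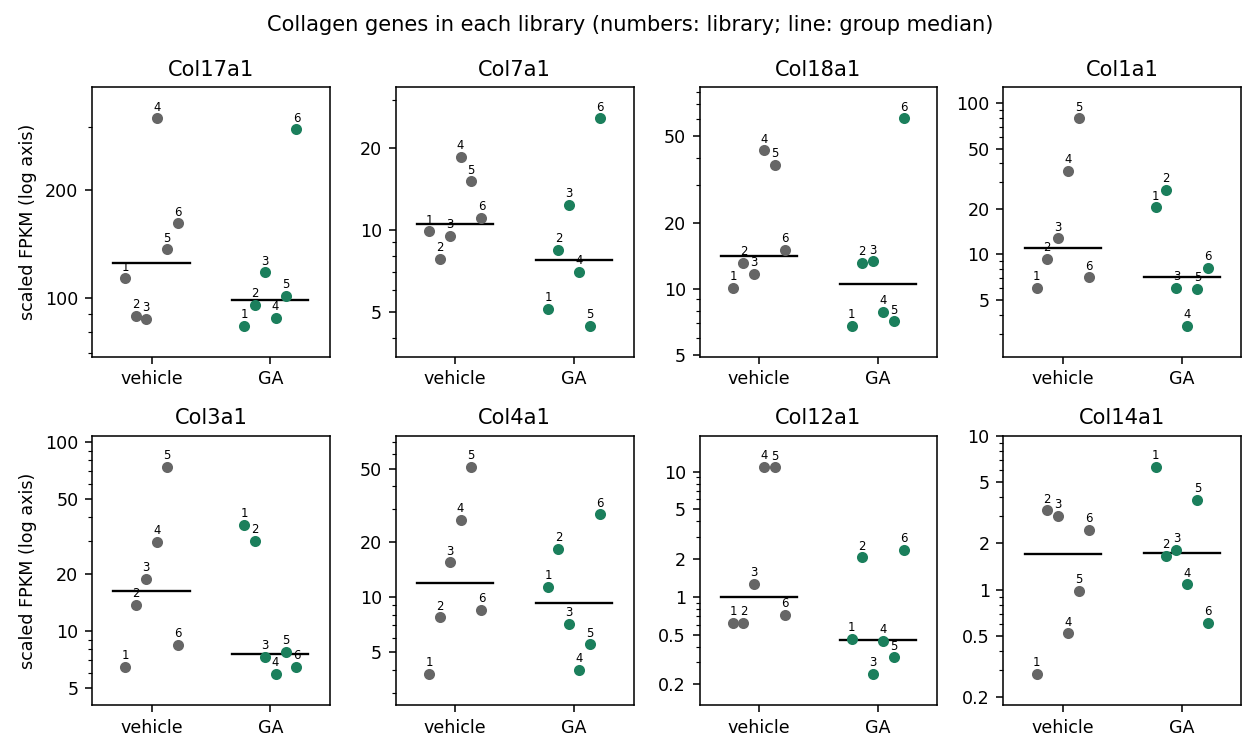
Level of 8 collagen genes in each library (points, numbered by library; vertical axis in scaled FPKM on a log scale; horizontal line, group median). Vehicle libraries 4 and 5 hold the highest Col1a1 and Col12a1 values, GA library 6 holds the highest Col7a1 and Col18a1 values, and the groups overlap in every panel.

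Among the FACIT collagens, Col12a1 and Col14a1 were highest in different libraries. Col12a1 encodes type XII collagen, found on fibrils under tension and in repairing tissue, and it lies on chromosome 9 (79598991 to 79718831). Its level was 10.9 FPKM in vehicle library 4 and 10.8 in vehicle library 5, and the remaining vehicle libraries had 0.616 to 1.27 FPKM. GA libraries 6 and 2 had 2.39 and 2.07 FPKM and the other 4 had 0.241 to 0.462 FPKM. The medians were 0.992 FPKM with vehicle and 0.452 FPKM with GA. This was a 45.2-fold range over the 12 libraries, and Col12a1 had the smallest p of the 33 genes (log2 fold change -1.36, SE 0.84, 95% interval -3.18 to 0.45, unadjusted p = 0.128, adjusted p = 0.9995, limma). Without vehicle library 4 the fold change was -0.87, and without vehicle library 5 it was -0.88.

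Col14a1 encodes type XIV collagen, which marks resting connective tissue, and it lies on chromosome 15 (55307750 to 55520803). It measured 0.282, 1.72 and 3.28 FPKM with vehicle and 0.610, 1.73 and 6.28 FPKM with GA. The highest library was GA library 1, and vehicle libraries 1 and 4 and GA library 6 were the lowest. Some libraries were low or high in both genes, such as GA library 4 with 0.442 FPKM of Col12a1 and 1.08 FPKM of Col14a1 and vehicle library 3 with 1.27 and 3.03 FPKM. The log2 fold change of Col14a1 was 0.56 (SE 0.64), positive in the full comparison and -0.04 when only libraries lacking Y-linked reads were compared. The latter set only vehicle libraries 5 and 6 against GA libraries 2 to 6. The ratio of Col12a1 to Col14a1 on the log2 scale was 4.15 in vehicle library 4 and 3.33 in vehicle library 5, and it was -3.50 in GA library 1 and -3.20 in GA library 5. Its mean was 0.55 ± 2.70 (SD, n = 6) with vehicle and -1.37 ± 2.11 with GA, and the difference of -1.92 was not larger than the spread (exact permutation test, two-sided, p = 0.197, adjusted p = 0.579 over 10 ratios).

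The fibroblast markers differed in which libraries were high. The 10 genes of the list summed to 176 to 389 FPKM in the vehicle group and 99.4 to 509 FPKM in the GA group. Gsn, with a mean of 198 FPKM, made up the largest share of that sum, and it was highest in GA library 1 (370 FPKM), where Col14a1 was highest. Pdgfra (5.81 FPKM), Pdgfrb (9.37 FPKM) and Thy1 (12.98 FPKM) were highest in vehicle library 5, where Col1a1 was highest, and Lum was at 41.3 FPKM there and 41.5 FPKM in GA library 2. Clec3b (29.8 FPKM) and Scara5 (5.59 FPKM) were highest in GA library 1, Dpt (50.8 FPKM) in vehicle library 3 and Pi16 (11.3 FPKM) in GA library 2. The sum of the list was 236 FPKM in vehicle library 5. Tcf21 did not exceed 0.138 FPKM. Neutrophil markers were highest in vehicle libraries 5 and 4, as Col12a1 was, and their part in these differences was not tested.

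Among type IV chains, Col4a1 had a 13.5-fold and Col4a2 a 14.7-fold range over the 12 libraries, against 3.29-fold for Col4a5. Col4a1 and Col4a2 encode the chains found in nearly all basement membranes. Col4a1 measured 3.79, 11.96 and 51.1 FPKM with vehicle and 4.00, 9.22 and 28.2 FPKM with GA. Col4a2 measured 2.62, 10.3 and 38.4 FPKM with vehicle and 4.16, 6.96 and 20.03 FPKM with GA. Vehicle library 5 was highest in both genes and vehicle library 1 lowest. Log2 fold changes were -0.41 (SE 0.62) and -0.35 (SE 0.59). Without vehicle library 5 that of Col4a1 was -0.024 and that of Col4a2 0.031, and Col4a2 changed sign in 3 alternative settings in all. Endothelial markers summed to 15.6 FPKM in vehicle library 1 and to 39.5 to 74.8 FPKM in the other 11.

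The starts of Col4a1 (minus strand) and Col4a2 (plus strand) face away from each other on chromosome 8, and their annotated transcripts share 22 bases (GRCm38.p6, RefSeq). A CCAAT lies 32 bases before the start of Col4a2, at chr8:11312773-11312802 on the plus strand, shown here from that CCAAT box on because the stretch lies just before the start of Col4a2 and just inside the transcript of Col4a1.
Col4a2: CCAATttgttggcgctgccccctcccctcg
Over the 12 libraries the log2 levels of the pair had a Pearson r of 0.99 (Spearman rho 1.00, p = 1e-05 for each, adjusted p = 4.67e-05 and 0.00014, permutation tests), and 0.98 without vehicle library 5 and GA library 6. The level of Col4a2 stayed near that of Col4a1 in each library, with a log2 ratio of -0.34 ± 0.12 (SD, n = 6) with vehicle and -0.28 ± 0.23 with GA (exact permutation p = 0.532). This was the least variable of the 10 ratios.

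Col4a5, a chain of epithelial basement membranes on the X chromosome, had a higher mean with GA and the second smallest p of the 33 genes. It measured 0.696, 1.29 and 1.60 FPKM with vehicle and 1.22, 1.36 and 2.29 FPKM with GA, and 5 of 6 GA libraries were above the vehicle median. The log2 fold change was 0.32 (SE 0.22, 95% interval -0.15 to 0.80, unadjusted p = 0.168, limma), and 0.098 to 0.446 over the 27 alternative settings. Because vehicle libraries 1 to 4 and GA library 1 carried Y-linked reads, sex and GA cannot be fully told apart for this X-linked gene. Col4a6, the neighbor of Col4a5, starts 1343 bases away in the opposite direction. The r of this pair was 0.17 after group means were subtracted, against 0.99 for Col4a1 and Col4a2. The ratio of Col4a5 to Col4a1 ran from -5.40 on the log2 scale in vehicle library 5 to -1.49 in vehicle library 1.

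Type VI collagen, the microfibril around cells, is built from Col6a1, Col6a2 and Col6a3. Col6a1 measured 3.37, 7.70 and 14.02 FPKM with vehicle and 4.07, 5.26 and 11.9 FPKM with GA. Col6a2 measured 2.23, 4.30 and 7.61 FPKM with vehicle and 1.54, 2.71 and 5.66 FPKM with GA. Col6a3 measured 0.835, 1.67 and 6.97 FPKM with vehicle and 0.831, 1.98 and 3.40 FPKM with GA. The log2 fold changes were -0.27 (SE 0.35), -0.48 (SE 0.37) and -0.11 (SE 0.50), and the smallest unadjusted p was 0.226. Without vehicle library 5 they were -0.094, -0.32 and 0.24. Col6a1 and Col6a2 varied together (r = 0.90, rho = 0.93, p = 0.00021 and 3e-05, adjusted p = 0.000735 and 0.00021, permutation tests), with an r of 0.88 without vehicle libraries 5 and 1.

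The epithelial collagens shared vehicle library 4 as a high library with the fibrillar genes and were also high in GA library 6. Col17a1 (chromosome 19, 47646344 to 47692094) measured 87.3, 125 and 318 FPKM with vehicle and 83.6, 98.5 and 296 FPKM with GA. A single library in each group, vehicle library 4 and GA library 6, stood far above its group, whose other libraries stayed at 162 FPKM or below. The log2 fold change was -0.22 (SE 0.36, 95% interval -1.001 to 0.56), and without vehicle library 4 it was 0.03. Col7a1 measured 7.84, 10.4 and 18.4 FPKM with vehicle and 4.45, 7.73 and 25.6 FPKM with GA, and its log2 fold change was -0.39 (SE 0.38, unadjusted p = 0.316). Without GA library 6 it was -0.70 (unadjusted p = 0.0291, adjusted p = 0.799).

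Col18a1 encodes a basement membrane collagen whose end fragment is endostatin, and Col15a1 its relative of vessel and muscle basement membranes. Col18a1 measured 10.2, 14.2 and 43.1 FPKM with vehicle and 6.84, 10.6 and 60.4 FPKM with GA. It was highest in GA library 6, vehicle library 4 and vehicle library 5, and 5 of 6 GA libraries lay below the vehicle median. The log2 fold change was -0.53 (SE 0.54), and without GA library 6 it was -0.98 (unadjusted p = 0.0311, adjusted p = 0.799). Col15a1 measured 1.30, 3.83 and 15.7 FPKM with vehicle and 1.05, 2.30 and 5.49 FPKM with GA, with a log2 fold change of -0.80 (SE 0.55, unadjusted p = 0.172), and -0.43 without vehicle library 5.

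Basal keratinocyte markers and the anchorage partners were highest in GA library 6, as Col7a1 and Col18a1 were. The sum of the 7 markers was 11614 FPKM in GA library 6, 9353 in vehicle library 5, 7544 in vehicle library 6 and 7365 in vehicle library 4, and Col17a1 was at 137 FPKM in vehicle library 5 and 162 FPKM in vehicle library 6. Krt15, a basal keratin of the same list, was lowest in GA library 6 (84.9 FPKM) and highest in GA library 5 (901 FPKM). The 9 anchorage partners of Col7a1 and Col17a1 (the integrin of hemidesmosomes and others) share Itgb4 and Lamb3 with that list and summed to 522 FPKM in GA library 6 and 512 FPKM in vehicle library 4, and to 146 to 316 FPKM in the other 10. The part of epithelial content in the levels of Col7a1, Col17a1 and Col18a1 was not tested.

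The test of GA against vehicle called 0 of the 33 collagen genes at an adjusted p below 0.1 and a log2 fold change of at least 0.58 in size, and the background was 0 of 16849 genes (0%). At an unadjusted p below 0.05 there were 0 of 33 collagen genes, where 1.23% of all tested genes were lower and 0.944% higher with GA. In limma-voom on the recovered reads 0 collagen genes were called as well, and the share of all genes called there is not given here. The smallest adjusted p of a collagen gene was 0.9995. The groups overlapped in all 33 collagen genes, and the share of all tested genes with such overlap was not computed.

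Of the 33 fold changes, 27 were negative and 6 positive (Col14a1, Col4a5, Col8a2, Col20a1, Col24a1 and Col22a1). Of all tested genes 52.5% were negative. The median log2 fold change was -0.19 for the collagens and -0.01 for all genes. Fold changes of at least 0.58 in size were found for 6 collagen genes, all lower with GA, and for 8.50% of all genes. Because these genes varied together over libraries, their directions are not independent of each other. The SD within groups had a median of 0.713 on the log2 scale for the 33 collagens and 0.391 for all genes, and 11 of the 33 had an SD of 1 or more, against 11.2% of all genes.

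**Figure D3:**
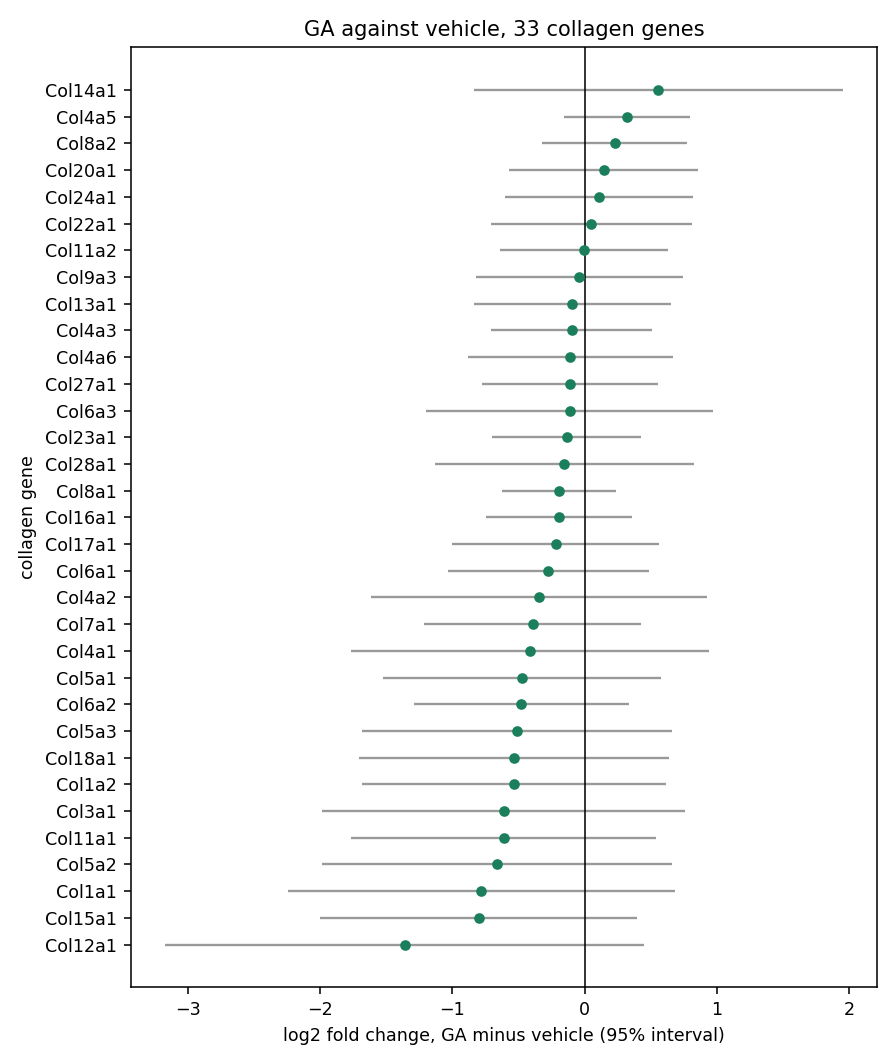
Log2 fold change (GA minus vehicle, horizontal axis) of the 33 collagen genes with 95% intervals from limma. All intervals include 0, and the widest belongs to Col12a1 (-3.18 to 0.45).

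Over the 12 libraries, part of the collagens varied together. After group means were subtracted, 13 of 32 other genes had an r of at least 0.8 with Col1a1, led by Col5a1 (0.97), Col1a2 (0.96) and Col3a1 (0.96). Only Col18a1 (0.87), Col7a1 (0.84) and Col16a1 (0.82) reached 0.8 with Col17a1, whose r with Col1a1 was 0.18. Col14a1 went with Col24a1 (0.77), Col20a1 (0.76) and Col22a1 (0.73), and its r with Col12a1 was -0.43. Several genes, such as Col8a1, Col8a2, Col4a5, Col9a3 and Col28a1, reached 0.8 with neither Col1a1 nor Col17a1, and none of the 32 reached it with Col14a1. The points share libraries, and Col20a1, Col22a1 and Col24a1 have means below 1 FPKM. Vehicle libraries 4 and 5 held the highest value of 19 of the 33 genes.

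**Figure D4:**
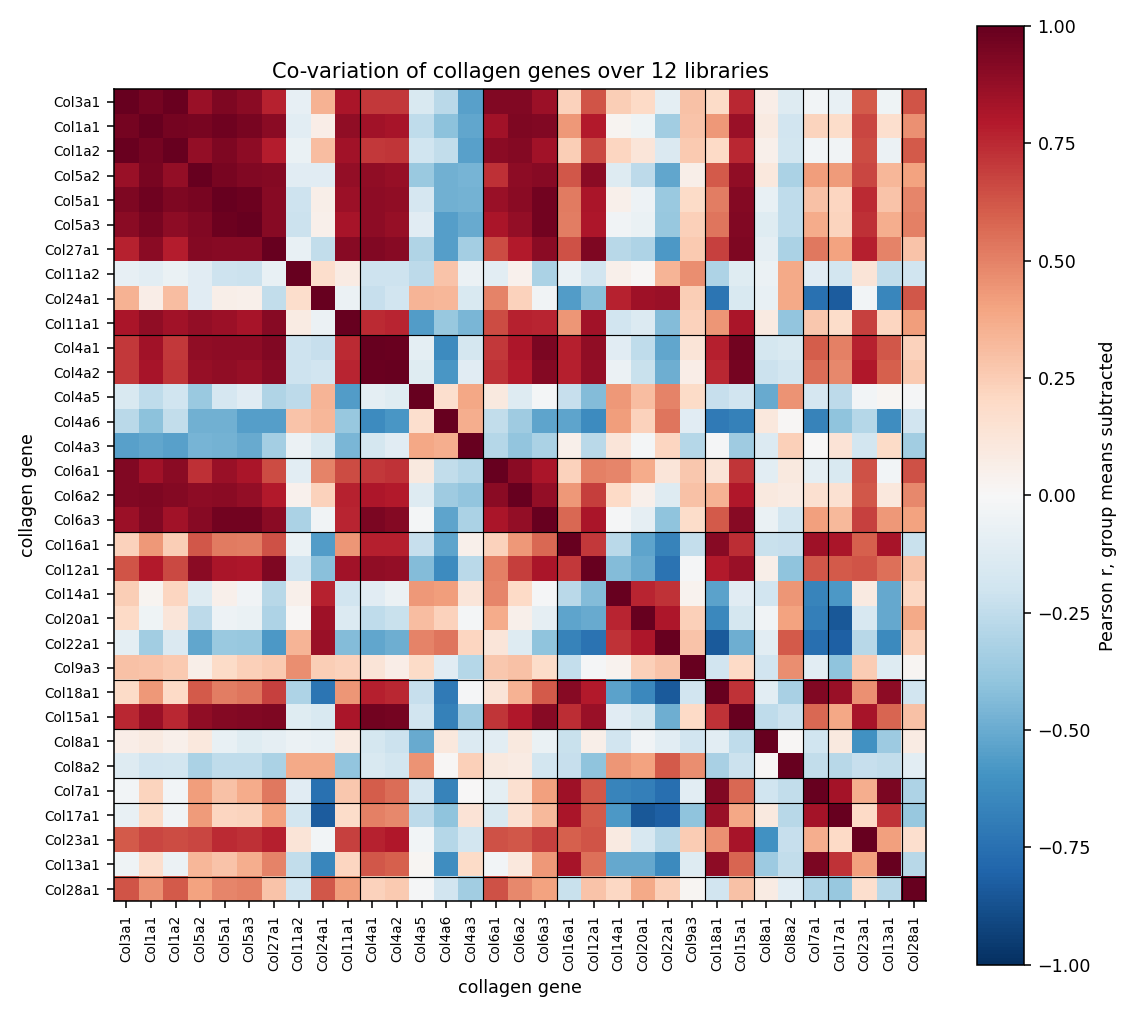
Pearson r between the 33 collagen genes over 12 libraries on log2(scaled FPKM + 0.1) with group means subtracted, rows and columns ordered by class. The genes of types I, III, V and VI and Col4a1 and Col4a2 are red together (Col1a1 with Col6a2, 0.94), and Col20a1, Col22a1 and Col24a1 are blue against Col17a1 (-0.85 for Col20a1).

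Of 14 gene pairs, 12 had an adjusted p below 0.05 for r, and 11 also for rho (permutation tests, 100000 resamples, of which 1e-05 is the smallest p they can give). Each was taken again without the 2 libraries farthest from the median of the pair's leading gene. Col1a1 and Col1a2 had an r of 0.96 (rho 0.84, p = 1e-05 and 0.00099, adjusted 4.67e-05 and 0.00231, permutation), and 0.92 without vehicle libraries 5 and 4. Col1a1 and Col12a1 had an r of 0.82 (rho 0.74, p = 0.00147 and 0.00805, adjusted 0.00229 and 0.0102, permutation), which became 0.51 without those libraries, so this relation rested largely on them. The r of Col1a1 with Col3a1 was 0.96 and became 0.93, and with Col6a1 it was 0.85 and became 0.86.

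Col7a1 and Col17a1 had an r of 0.84 (rho 0.83, p = 0.0003 and 0.00148, adjusted 0.00074 and 0.00296, permutation), and 0.83 without GA libraries 6 and 5. It was 0.88 within the vehicle group and 0.89 within the GA group. Col17a1 and Krt14, a basal keratin, had an r of 0.70 (rho 0.80, p = 0.0123 and 0.00284, adjusted 0.0156 and 0.00442, permutation), and 0.65 without vehicle library 4 and GA library 6. Col1a1 and Col17a1 had an r of 0.23 (rho 0.14, p = 0.491 and 0.668, adjusted 0.528 and 0.668, permutation), which became -0.20 without vehicle libraries 5 and 4.

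With markers of other cell types, Col1a1 and the fibroblast receptor Pdgfra had an r of 0.77 (rho 0.76, p = 0.00302 and 0.00532, adjusted 0.00423 and 0.00745, permutation), and 0.73 without vehicle libraries 5 and 4. Pdgfra was the only fibroblast marker paired with Col1a1, and others of its list, such as Clec3b and Gsn, were highest in GA library 1. Col1a1 and the muscle actin Acta1 had an r of 0.19 (rho 0.24, p = 0.559 and 0.459, adjusted 0.559 and 0.495, permutation), and 0.58 without vehicle libraries 5 and 4. Col4a1 and the endothelial gene Pecam1 had an r of 0.61 (rho 0.52, p = 0.0273 and 0.0898, adjusted 0.0318 and 0.105, permutation). That r was 0.81 in the vehicle group and 0.19 in the GA group, and this difference was not tested.

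The genes outside the family whose pattern was most like Col1a1, Col1a2 and Col3a1 (12140 genes averaging 1 FPKM or more were compared) were Lilrb4b (mean r 0.96), Plek (0.96), Fcgr3 (0.96), Ctsk (0.95) and Fcer1g (0.95). Fcgr3 and Fcer1g encode chains of immunoglobulin receptors of myeloid cells, and Ctsk a protease that cuts collagen. Most like Col4a1 and Col4a2 were Plat (0.98), Sparc (0.98), Pdgfb (0.98), Lamc1 (0.97) and Lamb1 (0.97), of which Lamc1 and Lamb1 are laminin chains. Among those most like Col7a1 and Col17a1 were Tagln2 (0.95), Mark3 (0.94), Cdcp1 (0.94) and Lamb3 (0.93), the last a chain of epithelial laminin. Each is a mean r over 12 libraries with group means subtracted.

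Of the 10 ratios between chains, 0 differed between the groups at an exact permutation p below 0.05 (the smallest p that 6 against 6 allows is 0.00216). The ratio of Col1a2 to Col1a1 was -0.94 ± 0.43 (SD, n = 6) on the log2 scale with vehicle and -0.70 ± 0.45 with GA (p = 0.368, exact permutation). It was lowest in vehicle libraries 5 (-1.56) and 4 (-1.40), where Col1a1 was highest. The ratio of Col7a1 to Col17a1 was -3.55 ± 0.37 with vehicle and -3.73 ± 0.44 with GA (exact permutation p = 0.463). Col4a1 over Col1a1 was 1.77 in GA library 6, where type IV was high and type I was not, and between -0.85 and 0.27 in the other 11.

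**Figure D5:**
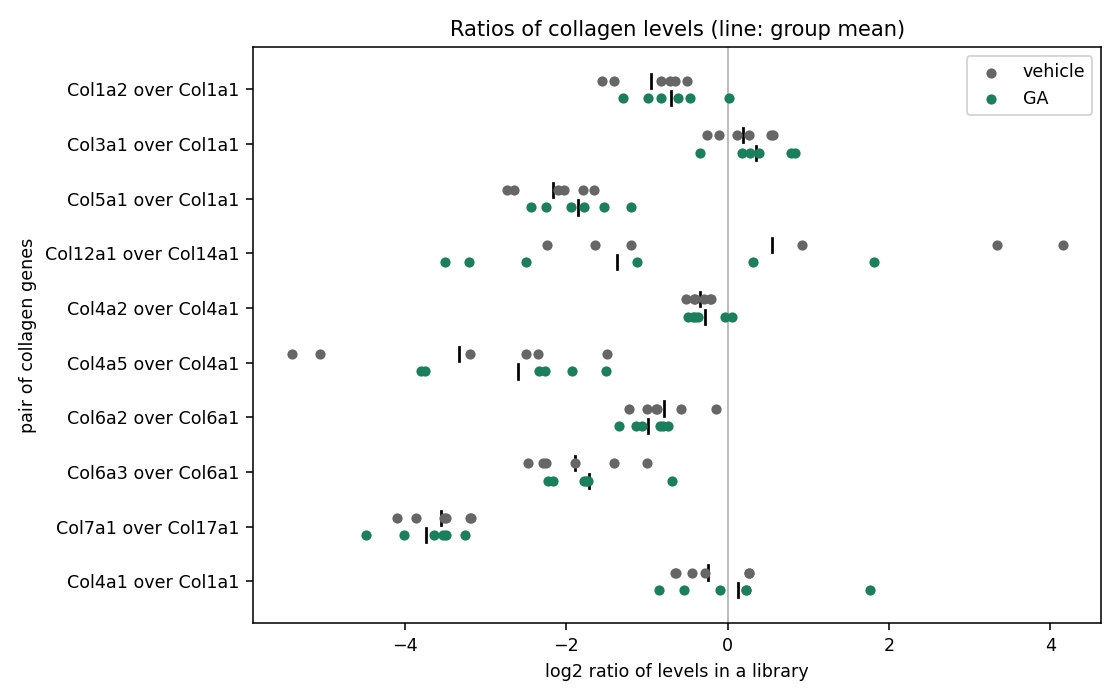
Log2 ratio of the levels of 10 pairs of collagen genes (rows) in each library (points; horizontal axis), by group, with a line at the group mean. Col4a2 over Col4a1 is the narrowest and Col12a1 over Col14a1 the widest, from -3.50 to 4.15.

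Collagens are hydroxylated, folded, trimmed, cross-linked and later cut by other proteins, and 95 such genes in 9 lists were compared in the same test. Of the 93 that passed the filter, 0 were called, 68 had a negative and 25 a positive fold change, and the median was -0.17. Of all tested genes 0 were called and 52.5% were negative, with a median of -0.01. By list, the negative and positive fold changes were 9 and 4 for the prolyl and lysyl hydroxylases, 7 and 4 for the chaperones, glycosyltransferases and export factors, 3 and 3 for the propeptide proteases, and 5 and 0 for the lysyl oxidases. They were 15 and 3 for fibril-associated proteins, 6 and 5 for basement membrane partners, 6 and 3 for the epithelial anchorage partners, 8 and 1 for collagen receptors, and 9 and 2 for collagen-degrading proteases.

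Of the 93 partners, 1 had an unadjusted p below 0.05, where 1.23% of all tested genes were lower and 0.944% higher with GA. This was Loxl4, a lysyl oxidase that cross-links collagen. It measured 0.572, 0.873 and 1.73 FPKM with vehicle and 0.245, 0.537 and 0.657 FPKM with GA, and the groups overlapped. Its log2 fold change was -0.81 (SE 0.285, unadjusted p = 0.0143, adjusted p = 0.9995, limma). Next came Thbs2 (-0.73, SE 0.37), a matricellular protein, and the collagenase Mmp13 (-2.31, SE 1.23). Mmp13 was at 26.5 FPKM in vehicle library 4 and 24.6 in vehicle library 5, and no other library exceeded 2.67 FPKM. Tenascin C (Tnc, -1.49, SE 1.001) was at 51.4 FPKM and 61.1 FPKM in the same libraries and did not exceed 9.44 FPKM elsewhere. Both thus shared the high libraries of Col12a1.

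The plakin Dst (0.235, SE 0.16) was the partner with the fourth smallest p. Lox, the lysyl oxidase of fibrils, was highest in vehicle library 5 (15.5 FPKM) and GA library 2 (7.29 FPKM), with a log2 fold change of -0.50 (SE 0.84). The collagen chaperone Serpinh1 measured 15.3, 24.0 and 63.3 FPKM with vehicle and 13.4, 27.2 and 58.3 FPKM with GA (0.13, SE 0.405). The prolyl hydroxylase P4ha1 (0.05, SE 0.25), the lysyl hydroxylase Plod2 (-0.31, SE 0.46) and the collagen-binding Sparc (-0.21, SE 0.46) did not pass the test either.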

How the data were processed

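Per the submitters' processing notes and the study's methods, the authors used HISAT2 against mm10 and featureCounts for reads mapped to a single place, and they deposited FPKM values per gene. Of 55463 rows, 22965 had no gene name and were left out. Library totals were recovered with GENCODE M21 exon lengths (97.8% to 98.4% of low values within 0.02 of a whole read). Libraries were scaled with trimmed means of log ratios (factors 0.896 to 1.07), genes averaging under 0.1 FPKM were dropped, and log2(FPKM + 0.1) was tested with limma 3.58.1 in R 4.3.3 (trend, Benjamini-Hochberg over 16849 genes). Replicate numbers were not treated as pairs (correlations of same-numbered libraries -0.37 to 0.08). Named genes are the 8 highest in mean, Col7a1 and Col17a1, the 6 with the smallest p, the 4 most variable with a mean of at least 1 FPKM and those of 14 pairs and 10 ratios, with 6 partners of smallest p and 6 chosen by role. Some genes that this rule names are not reported here. Members, lists and settings were chosen with earlier results of these data known. The test was checked on simulated data with independent normal noise in each gene. Genes here share high libraries, so that check does not cover this feature of the data.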

Additional observations from a re-analysis of the deposited data

Results flagged for a closer look

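In 8 of 56 sets of 6 libraries (18 genes and 10 ratios in each group), a single library lay apart from the others of its group by more than Dixon's 95% limit, as a share of the group's range. Chance alone would flag about 1 in 20 such sets if values were normally distributed. The genes were checked on FPKM rather than the log2 scale, where high values stand out less. That rate may therefore not hold here, and the sets share libraries. GA library 6 stood above its group in Col18a1 (60.4 FPKM, gap 0.877 of the range), Col17a1 (296 FPKM, 0.839), Col7a1 (25.6 FPKM, 0.629) and the log2 ratio of Col6a3 to Col6a1 (-0.69, 0.674). Vehicle library 4 stood above its group in Col17a1 (318 FPKM, 0.678). Vehicle library 5 stood above its group in Col3a1 (73.8 FPKM, 0.656) and Col6a3 (6.97 FPKM, 0.648). GA library 2 stood above its group in Col11a1 (0.225 FPKM, 0.910).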

How the results depend on the processing

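The test over all genes was repeated in 27 alternative settings, and 0 collagen genes and 0 partner genes were called in any of them. The shares of all genes called, or at an unadjusted p below 0.05, in these settings are not given here. The counts of collagen genes below therefore have no background beside them. The median log2 fold change of the collagens stayed negative, from -0.47 to -0.046. Fold changes of single genes moved away from 0 in some settings and toward 0 in others. They ran from -1.615 to -0.27 for Col1a1, -1.435 to -0.17 for Col3a1 and -1.297 to -0.15 for Col1a2. For Col5a2 the range was -1.301 to -0.20, for Col5a1 -1.195 to -0.12, for Col4a1 -1.112 to -0.016 and for Col15a1 -1.432 to -0.42. At an unadjusted p below 0.05 there was 1 collagen gene when only libraries lacking Y-linked reads were compared (Col23a1, -0.74). That setting compared only vehicle libraries 5 and 6 with GA libraries 2 to 6, and Col23a1 was highest in vehicle library 5 (5.51 FPKM). Leaving out 1 library in turn gave 0 to 2 such genes (Col7a1 and Col18a1, both without GA library 6). Signs changed for Col4a2 with a neutrophil term (0.028) and without the 3 libraries with high Lipf (0.062), for Col6a3 in the same settings (0.22 and 0.21), and, with only libraries lacking Y-linked reads, for Col14a1 (-0.040) and the ratio of Col6a3 to Col6a1 (-0.088). Leaving out 1 library in turn gave log2 fold changes of -0.49 to 0.027 for Col17a1 (positive without vehicle library 4), -0.73 to 0.031 for Col4a2 (positive without vehicle library 5) and -0.34 to 0.24 for Col6a3 (positive at 0.0059, 0.24, 0.093 and 0.027 when vehicle library 4 or 5 or GA library 4 or 5 was left out, in that order), and -0.046 to 0.34 for the ratio of Col6a3 to Col6a1 (negative without GA library 6). The cause was not tested. With replicate number as a block, 0 collagen genes were called, the median was -0.19 and the log2 fold change of Col12a1 was -1.36 (unadjusted p = 0.186, limma). The number of libraries and their spread set the width of the intervals, which for Col1a1 runs from -2.24 to 0.68.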

Other observations

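The 11 collagen genes that did not pass the filter were Col4a4, Col9a2, Col25a1, Col2a1, Col26a1, Col6a6, Col6a5, Col10a1, Col6a4, Col19a1 and Col9a1. None reached more than 0.207 FPKM or 63 reads in any library. Col2a1 and Col10a1, collagens of cartilage, had means of 0.042 and 0.0192 FPKM, and Col9a1 had 0.00151 FPKM. Beside the genes described above, Col8a1, a short-chain network collagen, was among the steadiest members at 2.35 to 5.52 FPKM over the 12 libraries, and Col16a1, a FACIT, lay between 1.81 and 4.86 FPKM.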
